A study of Homo sapiens with 3 samples.

Results

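YBX1 peaks on short interspersed nuclear elements (SINEs) were described in the human erythroleukaemia cell line HEL. SINE peaks were the rows of the 2 deposited peak lists whose repeat annotation has the class SINE. Peaks on X, Y and alternative contigs were left out. The SINE peaks numbered 903 of 21546 autosomal peaks in replicate 1 and 577 of 16208 in replicate 2. They were 4.19% of replicate 1 peaks (95% Wilson interval 3.93% to 4.47%) and 3.56% of replicate 2 peaks (3.29% to 3.86%). The series held 3 libraries of untreated HEL cells, an established line that carries the JAK2-V617F mutation. Chromatin immunoprecipitation sequencing (ChIP-seq) with an antibody against YBX1 gave 2 libraries, replicates 1 and 2, and sheared chromatin without immunoprecipitation gave 1 input library. MACS kept 10010819 tags (mapped reads) in replicate 1 and 9926271 in replicate 2, against 74780414 in the input. Nothing in the labels ties the replicates to separate cultures. Intervals and p-values therefore cover only the peaks of these libraries, which they treat as independent, and the spread may be technical.

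SINEs are short retrotransposons transcribed by RNA polymerase III and copied by the enzymes of LINE elements. Alu elements derive from the 7SL RNA of the signal recognition particle and are particular to primates, with AluJ the oldest subfamily, AluS intermediate and AluY the youngest. MIR elements are older, derive from a tRNA and are shared across mammals. YBX1 binds both RNA and DNA through its cold-shock domain, and its name comes from the Y box, an inverted CCAAT motif of promoters.

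Alu elements held most SINE peaks in both lists. They numbered 616 of 903 in replicate 1, or 68.2% (65.1% to 71.2%), and 440 of 577 in replicate 2, or 76.3% (72.6% to 79.5%). MIR elements held 285 and 137 peaks, and another SINE family held 2 peaks of replicate 1. The AluS subfamily supplied 354 and 235 peaks, AluJ 189 and 148, and AluY 56 and 47. The free Alu monomers (FLAM, FRAM and FAM), which predate the joined Alu dimer, supplied 17 and 10. Among MIR elements, MIRb held 116 and 60 peaks, MIR 105 and 46, MIR3 33 and 17, and MIRc 31 and 14. The most frequent single elements were MIRb and MIR in replicate 1, and AluJb, with 90 peaks in replicate 1 and 76 in replicate 2, led the Alu elements of replicate 2. Genome copy numbers are not in the files, so these shares were not set against the abundance of each element.

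SINE peaks held few tags, as did peaks on other transposons. Their median was 6 tags in each list, and peaks of 5 tags made up 34.7% of them in replicate 1 and 43.2% in replicate 2. All autosomal peaks together had medians of 9 and 8 tags, with 21.8% and 21.9% at 5 tags. Peaks on L2, L1, LTR and DNA elements pooled had medians of 7 and 6 tags, with 31.4% and 33.7% at 5 tags. On L2 elements alone the medians were 6 and 6 (38.0% and 40.6% at 5 tags), and on L1 elements 7 and 7 (27.3% and 30.0%). SINE peaks held 2.27% and 2.13% of all tags in peaks. The fold enrichment deposited for each peak is the authors' ratio of ChIP tags to a background. In replicate 1, 219 of 903 SINE peaks (24.3%) had a whole multiple of 13.5, the fold of 1 tag on the genome-wide background. In replicate 2, 125 of 577 (21.7%) had a multiple of 13.6. Over all autosomal peaks the shares were 36.1% and 34.4%. Such folds take few values and tie. The median fold was 43.2 on Alu and 40.5 on MIR elements in replicate 1. In replicate 2 the medians were 40.8 on Alu and 40.4 on MIR elements. Quartiles overlapped widely: in replicate 1 they ran from 34.6 to 53.9 on Alu and from 33.0 to 53.9 on MIR elements.

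Most SINE peaks stood beside a peak on a tandem repeat. A tandem repeat peak is here one annotated to a simple repeat or to sequence of low complexity, and beside means a gap of at most 500 bp within the same list. In replicate 1, 560 of 903 SINE peaks, or 62.0% (58.8% to 65.1%), stood beside such a peak, and in replicate 2 308 of 577, or 53.4% (49.3% to 57.4%). Among all peaks off tandem repeats the share was 49.5% in replicate 1 and 45.2% in replicate 2. Alu and MIR elements had much the same shares, 61.4% and 63.9% in replicate 1 and 52.7% and 55.5% in replicate 2. In replicate 1 the shares on other transposons were 50.2% on L2, 54.6% on L1, 56.5% on LTR and 50.2% on DNA elements. In replicate 2 they were 56.3% on L2, 52.0% on L1, 53.9% on LTR and 55.2% on DNA elements, so that the SINE share lay within their range there and above it only in replicate 1. This comparison was chosen after the values were seen. In replicate 1 the odds ratio, SINE over each, was 1.62 for L2, 1.36 for L1, 1.25 for LTR and 1.62 for DNA elements (Fisher's exact test, p adjusted over 10 such comparisons, 4.73e-05, 0.00115, 0.0322 and 0.00260). In replicate 2 none of the 4 passed the threshold, with odds ratios from 0.891 to 1.06 (exact test, adjusted p from 0.780 to 0.866).

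The distances fell into separate ranges. Of the SINE peaks, only 10 in replicate 1 and 5 in replicate 2 had their nearest tandem repeat peak at more than 500 and at most 5000 bp. Those farther than 5000 bp numbered 333 and 264, and the peaks that were not beside one had median gaps of 144958 and 128338 bp. For the peaks beside a tandem repeat peak, the median gap was 88 bp in replicate 1 and 87 bp in replicate 2.

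**Figure D1:**
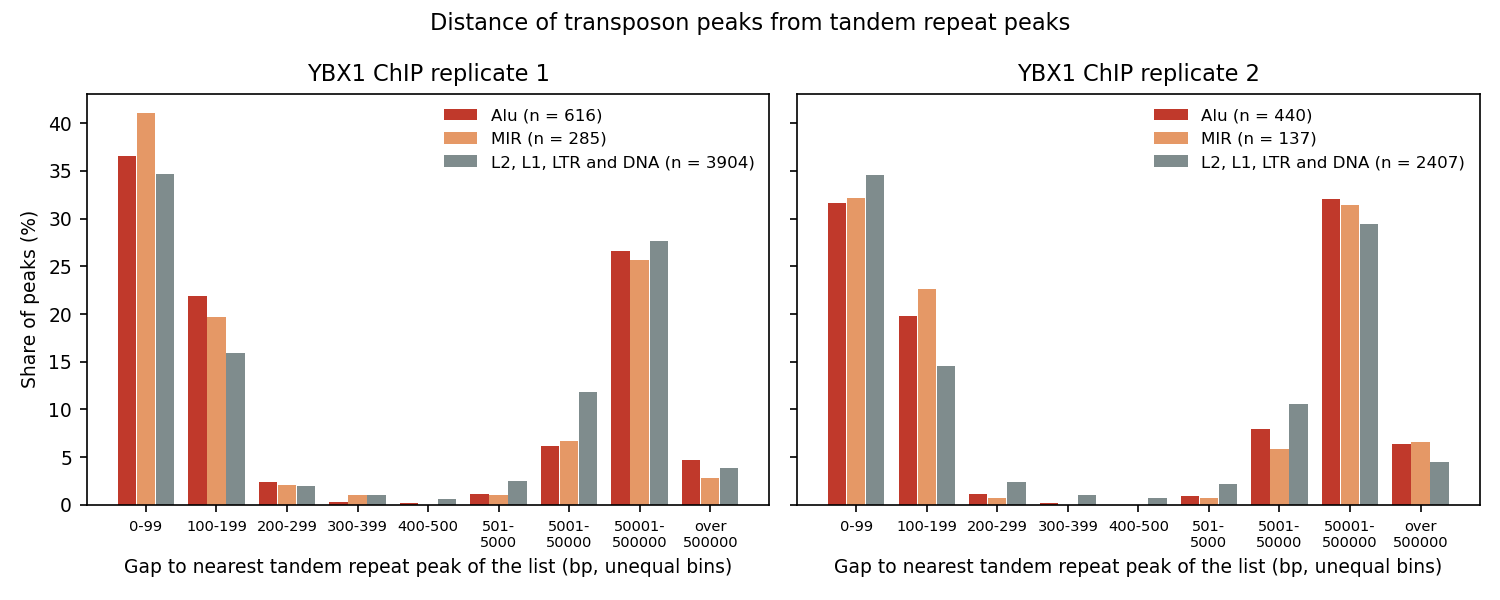
Share of peaks (%) by the gap in bp to the nearest tandem repeat peak of the same list, for Alu, MIR and the pooled L2, L1, LTR and DNA peaks of each replicate; the bins are unequal. Alu and MIR peaks pile up below 200 bp and again beyond 5000 bp, with few between, and the other transposons show the same form.

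The tandem repeat peak of such a pair was nearly always the stronger. It held more tags than its SINE neighbour in 533 of 560 cases in replicate 1 and in 296 of 308 in replicate 2. Pairs were counted here, 1 per SINE peak. They held 491 different tandem repeat peaks in replicate 1 and 276 in replicate 2, so some were counted more than once. The median over pairs was 24 and 21 tags, against 13 and 11 tags over all tandem repeat peaks, each counted once. The SINE peaks of the pairs had a median of 6 in both lists. The tandem summit lay before the SINE summit on the reference strand in 257 cases and after it in 303 in replicate 1, and in 155 and 153 cases in replicate 2. The median distance between summits was 180.5 bp (quartiles 150 and 217) in replicate 1 and 170 bp (145 and 208) in replicate 2. The unit AGAT, pooled over its rotations and both strands (TAGA and TCTA among them), was the neighbour's unit in 79.6% of pairs in replicate 1 and 88.6% in replicate 2. Over all simple repeat peaks, each counted once, AGAT made up 43.8% and 46.6%. The unit ATCC, pooled likewise, was that of 11.8% and 7.14% of pairs, against 40.5% and 37.7% of all simple repeat peaks. The units beside peaks on other transposons are not given here, so these shares cannot be read as particular to SINE peaks.

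A further set of SINE peaks stood beside a tandem repeat peak of the other list only. They numbered 81 in replicate 1 and 66 in replicate 2, and 28 and 30 of them overlapped that peak, so the same place carried a SINE label in one list and a tandem repeat label in the other. The SINE peaks away from tandem repeat peaks of both lists numbered 262 (176 Alu, 85 MIR and 1 other) in replicate 1 and 203 (165 Alu and 38 MIR) in replicate 2. Whether the label of a peak names the sequence that was bound was not tested.

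To ask how far SINE peaks recurred, each was searched for in the other list. Sharing 1 bp or more with any peak there counted as found. In replicate 1, 282 of 903 SINE peaks, or 31.2% (28.3% to 34.3%), were found, against 53.8% of all autosomal peaks and 36% of those off tandem repeats. In replicate 2, 288 of 577, or 49.9% (45.9% to 54.0%), were found, against 77.5% of all autosomal peaks and 58.8% of those off tandem repeats. The SINE shares lay below these backgrounds in both lists, and the shorter replicate 2 list had the higher shares.

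Within strata of tag count SINE peaks were found less often than the peaks on other transposons pooled. This did not hold against every single class, as given below. L2, L1, LTR and DNA elements together were found for 38.7% of replicate 1 peaks and 66.5% of replicate 2 peaks. The Mantel-Haenszel odds ratio over strata of tag count, SINE over these, was 0.789 (95% interval 0.661 to 0.941) in replicate 1 (n = 903 SINE and n = 3904 other peaks, adjusted p = 0.0173). In replicate 2 it was 0.532 (0.433 to 0.654; n = 577 and n = 2407 peaks, adjusted p = 7.43e-09). The p-values were adjusted by the Benjamini-Hochberg method over all 24 comparisons of shares. Without the peaks beside a tandem repeat peak of the same list, which left n = 343 SINE peaks, the odds ratio in replicate 1 was 0.886 (adjusted p = 0.566), and the call there was lost. It was also lost there among peaks of at least 10 tags (0.819) and at p of at most 1e-10 (0.776).

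By single classes, the odds ratio of SINE over L1 peaks was 0.725 (0.599 to 0.879; n = 1869 L1 peaks, adjusted p = 0.00293) in replicate 1 and 0.417 (0.331 to 0.526; n = 1247, adjusted p = 4.37e-13) in replicate 2. SINE over LTR peaks gave 0.721 (0.584 to 0.889; n = 1146 LTR peaks, adjusted p = 0.00520) in replicate 1 and 0.622 (0.486 to 0.796; n = 698, adjusted p = 0.000741) in replicate 2. Both replicate 1 calls were lost at p of at most 1e-10 (0.741 for L1 and 0.717 for LTR), among peaks of at least 10 tags (0.840 and 0.717) and without tandem neighbours (0.871 and 0.697). In replicate 2 the L1 call held under these 3 settings, and the LTR call was lost under the first 2 (0.702 and 0.636). Against L2 peaks the lists went apart: the odds ratio was 1.25 (0.966 to 1.62; n = 626 L2 peaks, adjusted p = 0.135) in replicate 1 and 0.689 (0.502 to 0.945; n = 288, adjusted p = 0.0419) in replicate 2. The replicate 2 call was lost at p of at most 1e-10 (0.801), among peaks of at least 10 tags (0.548), without tandem neighbours (0.561), with the same element required (0.859) and without tag strata (0.732). In replicate 1 the comparison passed with overlap of at least 0.5 of the shorter peak (1.38) and without tag strata (1.36). SINE over DNA transposon peaks gave 0.744 (0.535 to 1.03; n = 263 DNA peaks, adjusted p = 0.129) in replicate 1 and 0.766 (0.527 to 1.11; n = 174, adjusted p = 0.227) in replicate 2, neither past the threshold of 0.05.

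**Figure D2:**
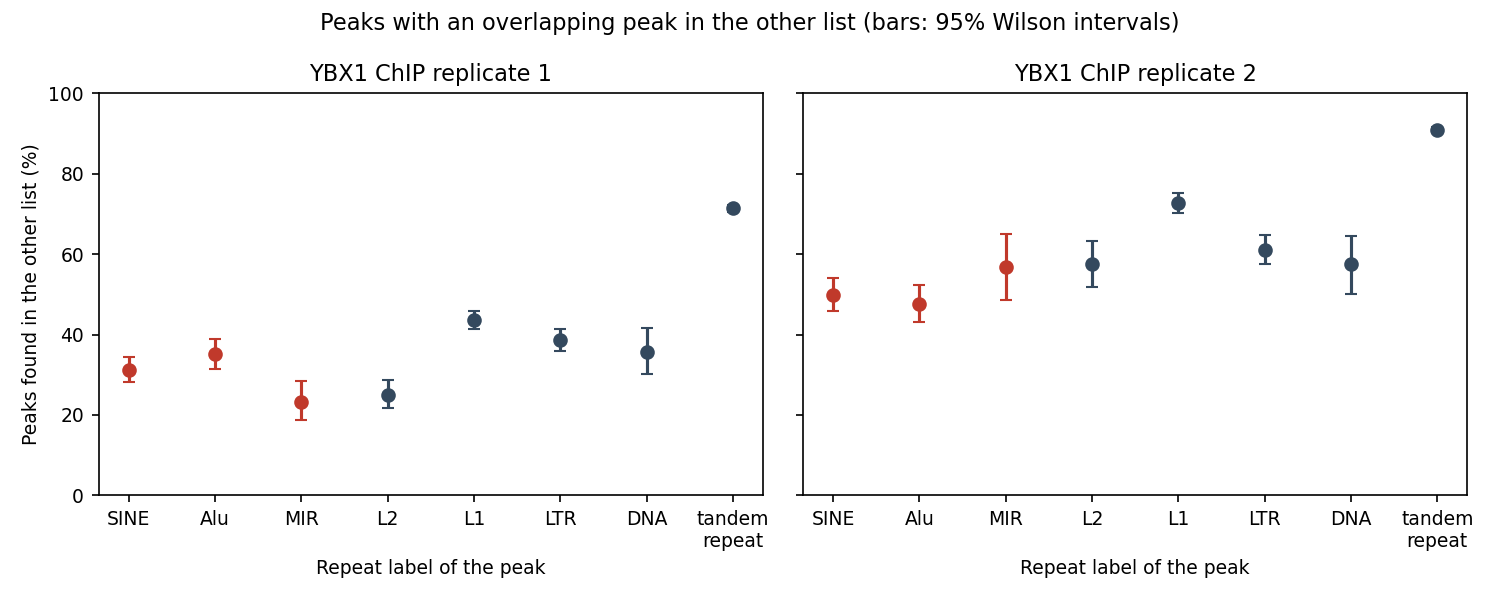
Share of peaks (%) with an overlapping peak in the other list, by repeat label, for each replicate; points are shares and bars 95% Wilson intervals. SINE peaks (31.2% and 49.9%) lie below L1 peaks (43.6% and 72.8%) and tandem repeat peaks (71.4% and 91.0%) in both lists.

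Alu and MIR peaks had opposite orders in the 2 lists when any overlap counted. In replicate 1, 216 of 616 Alu peaks (35.1%) and 66 of 285 MIR peaks (23.2%) were found, an odds ratio of 1.79 (Fisher's exact test, two-sided, adjusted p = 0.00126). In replicate 2, 210 of 440 Alu peaks (47.7%) and 78 of 137 MIR peaks (56.9%) were found, an odds ratio of 0.691 (exact test, adjusted p = 0.112). Within strata of tag count the replicate 2 odds ratio was 0.545 (Mantel-Haenszel test, n = 440 Alu and n = 137 MIR peaks, adjusted p = 0.00905), in the opposite direction to replicate 1. Away from tandem repeat peaks of both lists, 32.4% of Alu and 17.6% of MIR peaks were found in replicate 1, and 31.5% of Alu and 31.6% of MIR peaks in replicate 2. In replicate 2 the direction turned when the same element was required (1.23, against 1.79 in replicate 1). It also turned among peaks of at least 10 tags (1.33, against 3.53 in replicate 1). Neither replicate 2 value passed the threshold (Fisher's exact test, adjusted p = 0.400 and 0.691). The second rested on n = 99 Alu and n = 18 MIR peaks, so a common order of the families in both lists is not shown. A difference between the lists in this odds ratio was not tested.

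Among the subfamilies, AluJ peaks were found for 38.1% (31.5% to 45.2%) of replicate 1 and 49.3% (41.4% to 57.3%) of replicate 2 peaks, and AluS peaks for 34.5% (29.7% to 39.6%) and 48.5% (42.2% to 54.9%). AluY peaks were found for 28.6% (18.4% to 41.5%) and 29.8% (18.6% to 44.0%). The AluY interval overlaps those of AluJ and AluS in both lists. The minimum of 5 tags was held by 57.4% of AluY peaks in replicate 2, against 33.1% of AluJ and 46.4% of AluS peaks. The MIR subfamilies lay between 18.2% for MIR3 and 27.6% for MIRb in replicate 1, and between 56.5% for MIR and 58.8% for MIR3 in replicate 2. AluSc8, with 19 peaks in each list, had 12 of them found in each (63.2%), and recurs below among peaks of low fold enrichment.

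**Figure D3:**
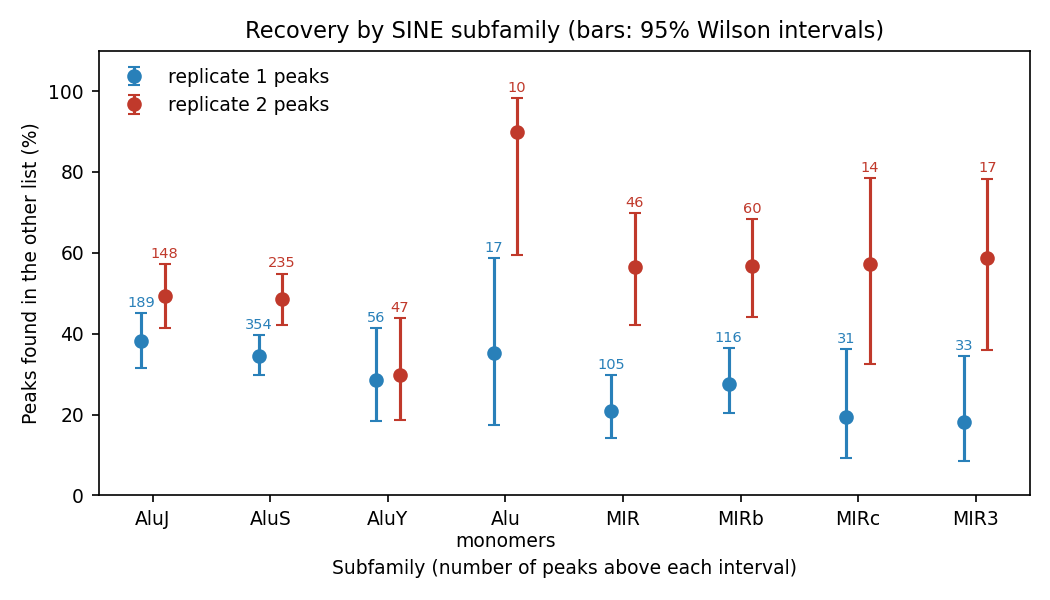
Share of SINE peaks (%) with an overlapping peak in the other list by subfamily, with 95% Wilson intervals and the number of peaks above each. AluY has the lowest replicate 2 share (29.8%), and intervals overlap within each family apart from the 10 Alu monomer peaks of replicate 2.

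Peaks with more tags were mostly found more often. Among SINE peaks not beside a tandem repeat peak of their list, 6.98% of 5-tag peaks were found in replicate 1 and 10.9% in replicate 2, against 76.4% and 92.5% at 11 to 20 tags. Peaks beside one were found more often at 5 tags, for 15.8% in replicate 1 and 51.2% in replicate 2. At 11 to 20 tags those shares were 54.4% and 90.3%. The same shares over all peaks at these tag counts are not given here, so they cannot be read as particular to SINE peaks. The tandem repeat neighbours themselves were found for 532 of 560 pairs in replicate 1 and 305 of 308 in replicate 2. Over all tandem repeat peaks, each counted once, 71.4% were found in replicate 1 and 91.0% in replicate 2. The neighbours had more tags, with medians over pairs of 24 and 21 against 13 and 11, and some were counted more than once. Shares at equal tag counts were not compared, so the counts cannot be read as particular to neighbours of SINE peaks.

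**Figure D4:**
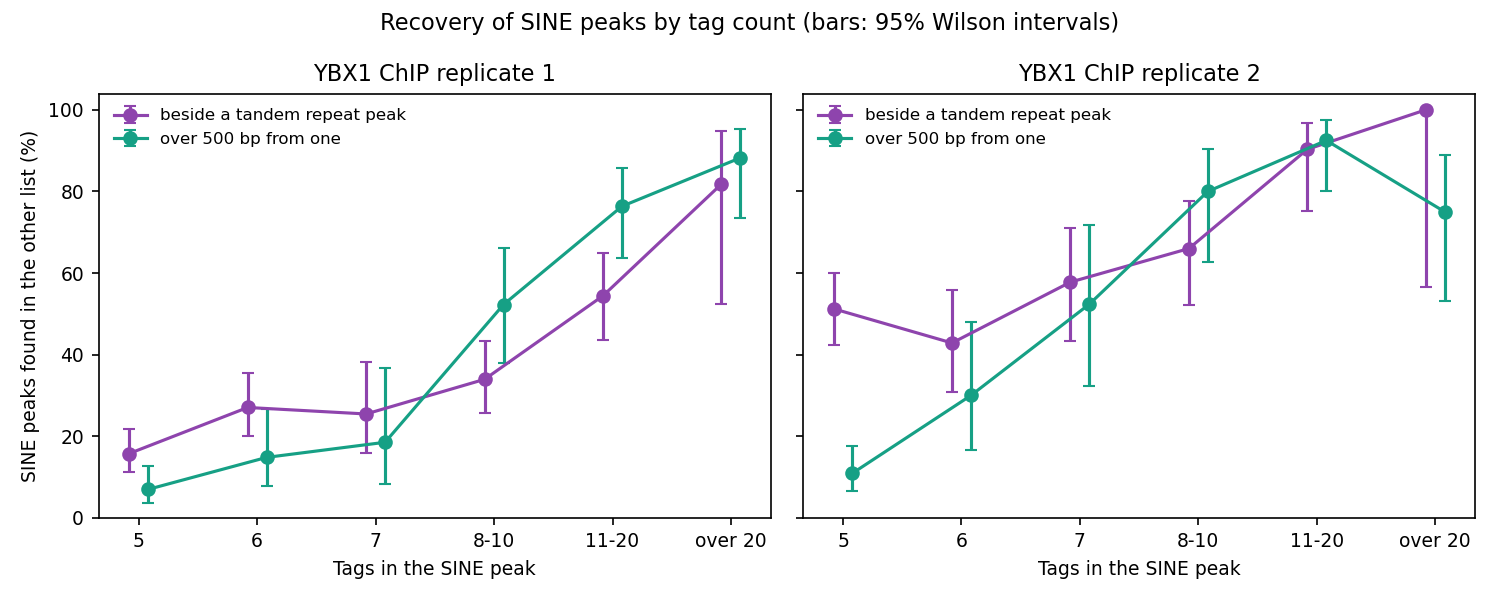
Share of SINE peaks (%) found in the other list by tags in the peak, for peaks beside a tandem repeat peak of the same list and for those over 500 bp from one, with 95% Wilson intervals. The share is 15.8% and 51.2% at 5 tags beside a tandem repeat peak, and 6.98% and 10.9% away from one, and 54.4% or more in every group above 10 tags.

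By the authors' annotation, SINE peaks lay in introns for 40.4% of replicate 1 and 41.8% of replicate 2 peaks. They were more often intronic than LTR peaks, at 19.4% and 18.1%, with odds ratios of 2.82 and 3.26 (Fisher's exact test, adjusted p = 4.59e-24 and 1.74e-19). Against L2, L1, LTR and DNA peaks pooled, at 34.0% and 34.6%, the odds ratios were 1.32 and 1.36 (exact test, adjusted p = 0.00111 and 0.00379). Both calls over the pooled transposons were lost without the peaks beside a tandem repeat peak (1.18 and 1.20). They were also lost among peaks of at least 10 tags (1.07 and 1.13). The replicate 1 call over LTR peaks held under these settings, at 2.12 and 2.66 (exact test, adjusted p = 5.91e-06 and 6.49e-05). No difference passed the threshold against L2 peaks (45.2% and 46.5%), L1 peaks (38.3% and 40.7%) or DNA peaks (39.9% and 37.4%). Without tandem neighbours, SINE peaks were less often intronic than L2 peaks in both lists, with odds ratios of 0.639 and 0.553 (exact test, adjusted p = 0.0163 and 0.0207). Alu peaks were intronic for 39.4% and 41.4% and MIR peaks for 42.5% and 43.1%, odds ratios of 0.883 and 0.933 (exact test, adjusted p = 0.482 and 0.800). Promoters held 33 and 26 SINE peaks, and exons 2 in each list.

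Regions with a peak in both lists, at least 1 of them on a SINE, numbered 339, of which 245 were Alu and 94 MIR. In 210 of them both lists carried a SINE label, and 102 held a tandem repeat peak of 1 or both lists. The regions away from tandem repeat peaks in both lists numbered 73. Spearman's rho between the replicates' fold enrichments was 0.535 over all 339 regions and 0.823 over those 73; the points share the input library and the selection of called peaks. The regions with fold enrichment below 15 in both lists are all among the 73 and widen their range.

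**Figure D5:**
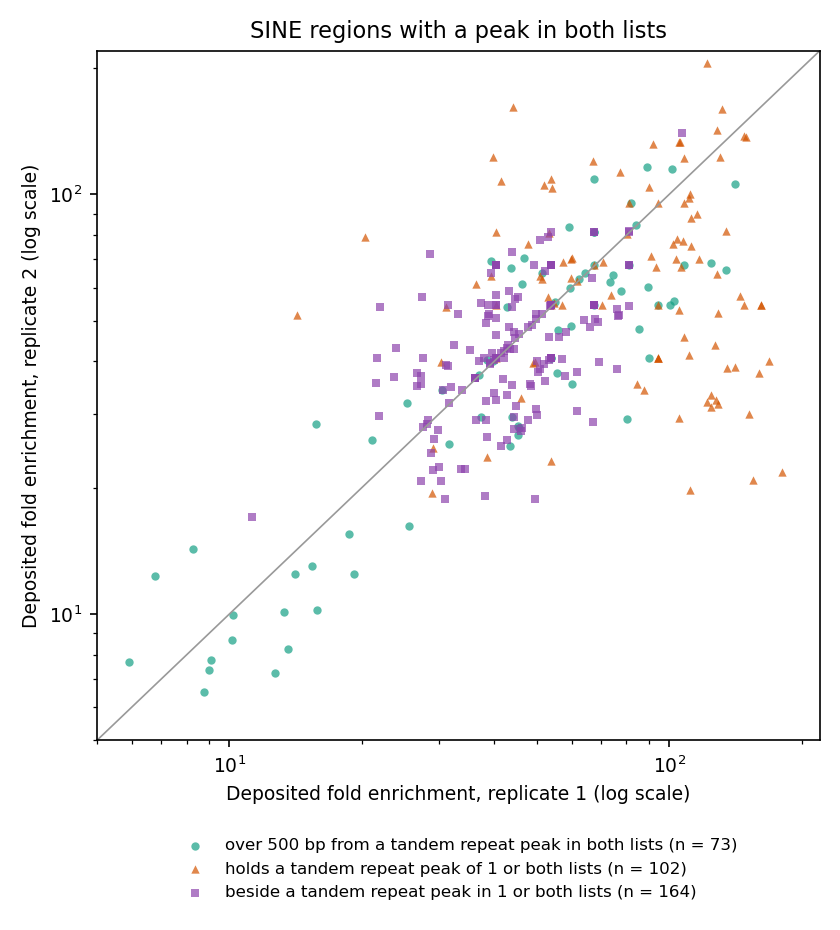
Deposited fold enrichment of the 339 SINE regions in replicate 1 and replicate 2, both axes log scaled, with the line of equal values. Spearman's rho is 0.823 over the 73 regions away from tandem repeat peaks and 0.412 over the 266 others.

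Among the 20 regions with the highest lower fold enrichment of the lists, 15 were Alu and 5 MIR, 11 intronic and 9 intergenic. Only 3 of them carried a SINE label in both lists, and those 3 were also the only ones away from tandem repeat peaks in both. For each region 1 peak per list was taken, a SINE peak if there was any. By these peaks a tandem repeat label stood in 1 list at 16 of the 20, in replicate 1 at 11 and in replicate 2 at 5. The first was chr11:73505173-73505271 in an intron of MRPL48, a mitochondrial ribosomal protein gene, with 24 tags and a fold enrichment of 148 in replicate 1 and 23 tags and 138 in replicate 2. It was labelled TCTA in replicate 1 and AluJb in replicate 2. An intron of LYG2, a lysozyme G-like gene, followed at chr2:99859942-99860056, with folds of 149.9 (AluJb) and 137 (TAGA). A region near DLG2, a synaptic scaffold gene, had 132 (TCTA) and 160 (AluSx1). One near UNC5D, a netrin receptor gene, had 128 (AluJr) and 142 (TAGA).

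The strongest MIR region was chr1:70230389-70230629 in an intron of LRRC7, which encodes a postsynaptic density protein. It had 31 tags and a fold of 130.3 in replicate 1, labelled TAGA, and 38 tags and 123 in replicate 2, labelled MIRb. Further MIR regions among the 20 lay in introns of PDX1-AS1 (106 and 133) and LOC101927314 (90.2 and 103.9), and between genes near PRKCQ (92.1 and 132), a protein kinase C gene. By the peak taken for each list, all 5 MIR regions of the 20 carried a tandem repeat label in 1 list. The region near PRKCQ held 2 tandem repeat peaks, and its replicate 1 MIRb peak lay 8 bp from a tandem repeat peak of that list. Its values therefore need not be those of the same place under different labels. The highest replicate 2 fold among the 20 was 205, at an intergenic AluSc8 label near RSRP1 and SYF2, a splicing factor gene. Replicate 1 had 122 there under a TAGA label. Intronic Alu regions of CD4, the T-cell coreceptor (107 and 139.9), BLVRB, a biliverdin reductase abundant in erythroid cells (106 and 133), and CAPZB, an actin capping protein gene (116 and 89.7), were also among them. Their Alu labels were those of replicate 2. In replicate 1 CD4 had no repeat label, BLVRB TCTA and CAPZB TAGA. Near PARD3, a cell polarity gene, the values were 108 (TCTA) and 122 (AluJo). Intergenic Alu regions on chromosome 17 near ZNF207 (111 and 100.1), on chromosome 1 near EFNA1, an ephrin gene (111 and 98.3), and on chromosome 7 near KCNH2, a potassium channel gene (108 and 95.2), were among them too. The first was labelled TCTA and the second TAGA in replicate 1, and the third TAGA in replicate 2.

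The 3 regions labelled SINE in both lists and away from tandem repeat peaks were all AluS. An AluSx in an intron of STK3, a Hippo pathway kinase gene, had 26 and 21 tags and folds of 141 and 106. The AluSx at chr2:17336926-17337006, for which no gene is named, had 16 tags in each list and folds of 101 and 115. The AluSz at chr4:170593367-170593472 in an intron of CLCN3, a chloride-proton exchanger gene, had 14 tags in each and folds of 89.2 and 116. Their nearest tandem repeat peaks lay 293755 and 149540 bp, 32255 and 32228 bp, and 229115 and 229138 bp away. Next among regions away from tandem repeat peaks, picked after the values were seen, were an AluSx on chromosome 1 near NBL1 and HTR6 (84.3 and 84.8) and an AluJr in an intron of RYR2, the cardiac ryanodine receptor (81.9 and 95.2, with no repeat label in replicate 2).

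Of the regions labelled promoter or exon in both lists, 14 were promoter and 2 exon regions, 13 Alu and 3 MIR, named for 12 genes. By the lower fold of the lists, the first was an AluJb in an exon of TRIM54, a muscle ubiquitin ligase gene, at chr2:27522501-27522570, with 13 and 9 tags and folds of 80.9 and 68. A MIRb at the LRFN1 promoter, chr19:39807048-39807108, had 9 tags in each list and folds of 73.2 and 61.8. An AluSx at the promoter of the microRNA gene MIR6749 had 60.2 (labelled TCTA) and 70.6. ACSS2, which encodes a cytosolic acetyl-CoA synthetase, had an AluJr region at chr20:33465713-33465817 with 27 and 17 tags and folds of 89.5 and 60.2, and a second at chr20:33465880-33465991 with 8 tags in each and 37.4 and 29.5. The ACSS2, LRFN1, TRIM54 and PDE4DIP regions were the ones away from tandem repeat peaks in both lists.

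The promoter of FICD, an endoplasmic reticulum AMPylase gene, had 41.5 under an AluSz and 41.9 under an AluSx3 label at chr12:108906994-108907097. FXYD2, a regulator of the sodium pump, had 3 regions (48.5 and 34.9, 27.6 and 27.9, 27.3 and 35.4). LOC101929312 (40.5 and 40.8), LOC100507530 (exon; 36.1 and 36.5), DENND1C (33.6 and 22.2), GGT3P (34.4 and 22.2) and PDE4DIP (25.7 and 16.2) had 1 each. GGT3P and PDE4DIP belong to gene families with similar copies, and how reads were placed among them was not tested.

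Promoter windows of 300 bases, from 250 before to 50 after an annotated start, were read from RefSeq on GRCh38.p14 for the genes with such promoter regions; 5 of 10 genes matched, with 11 windows. They are shown because the Y box core is the motif for which YBX1 was named. Capitals mark CCAAT or its reverse complement ATTGG, which do not overlap each other in these windows. The peaks are on hg19 and the windows on GRCh38.p14, so whether a peak lies in its gene's window was not determined.
FICD (chr12:108515027-108515326, plus strand): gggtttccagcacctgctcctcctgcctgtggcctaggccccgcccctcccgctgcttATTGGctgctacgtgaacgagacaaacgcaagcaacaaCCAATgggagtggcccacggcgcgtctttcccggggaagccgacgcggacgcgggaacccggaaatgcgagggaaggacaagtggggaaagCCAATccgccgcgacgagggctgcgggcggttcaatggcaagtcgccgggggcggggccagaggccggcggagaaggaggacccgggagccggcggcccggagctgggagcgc
ACSS2 upstream start (chr20:34874739-34875038, plus strand): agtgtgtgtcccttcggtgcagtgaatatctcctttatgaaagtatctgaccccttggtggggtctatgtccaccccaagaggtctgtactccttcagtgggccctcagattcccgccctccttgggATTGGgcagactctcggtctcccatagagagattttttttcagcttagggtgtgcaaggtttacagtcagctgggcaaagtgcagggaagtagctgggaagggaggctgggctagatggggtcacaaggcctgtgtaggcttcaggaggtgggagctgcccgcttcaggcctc
ACSS2 second start (chr20:34876362-34876661, plus strand): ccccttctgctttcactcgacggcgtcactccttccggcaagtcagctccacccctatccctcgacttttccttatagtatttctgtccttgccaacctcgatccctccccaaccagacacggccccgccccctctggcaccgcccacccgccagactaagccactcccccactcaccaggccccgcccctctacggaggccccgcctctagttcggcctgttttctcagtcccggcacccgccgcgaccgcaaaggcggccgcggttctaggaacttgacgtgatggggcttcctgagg
LRFN1 (chr19:39320814-39321113, minus strand): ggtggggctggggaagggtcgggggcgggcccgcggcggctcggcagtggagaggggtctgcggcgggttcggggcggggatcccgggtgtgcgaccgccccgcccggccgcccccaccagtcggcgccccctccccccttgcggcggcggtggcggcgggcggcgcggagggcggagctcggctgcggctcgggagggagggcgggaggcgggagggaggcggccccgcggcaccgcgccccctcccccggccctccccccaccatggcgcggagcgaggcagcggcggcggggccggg
The FICD window holds 3 matches, 2 of CCAAT and 1 of ATTGG, the ACSS2 upstream window 1 of ATTGG, and the other 2 windows none. Over the 11 windows, 3 hold a match, beside 34.6% of all 35116 windows in the table. The letters GTTCGAGAC, from the B box of the Alu polymerase III promoter, were searched on both strands and are in none of the 11 windows and in 0.0342% of all windows.

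A small set of SINE peaks had a low fold enrichment, most of them with many tags. A fold below 15 was given for 29 SINE peaks of replicate 1 (3.21%) and 24 of replicate 2 (4.16%), against 1.41% and 2.76% of all autosomal peaks, and 19 and 15 of them held at least 20 tags. Most lay at few loci. On chromosome 8, at and around REXO1L2P, lay 15 and 10 of them, on AluJb, AluSx, MIRc and, in replicate 2, MIR elements. On chromosome 22, near USP18, DGCR6 and ZNF74 and, in replicate 2, FAM230B, lay 6 and 9, all AluSc8. At chr21:11186438-11186835, near the BAGE genes, an AluSc8 peak held 226 tags at a fold of 10.2 in replicate 1 and 247 tags at 9.95 in replicate 2, the most tags of any SINE peak in both lists. The short arm of chromosome 9 held 5 in replicate 1, spread over several places, with 5 to 20 tags and a median of 10, and 1 in replicate 2 with 9 tags. These loci were picked after the values were seen, and the part of copy number or mapping was not tested.

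The 5 SINE peaks with the highest fold that the other list lacks were all Alu peaks in both lists. In replicate 1 they were an AluSz near SESTD1 and CCDC141 (11 tags, fold 118), an AluSz near ZNF521 (20 tags, 109.9), an AluY near SCN2A and SCN3A (12 tags, 99.6), an AluSz in an intron of LRGUK (17 tags, 80.9) and an AluJb on chromosome 2 with no gene named (11 tags, 80.9). The last 3 had a peak of replicate 2 within 28, 118 and 127 bp without overlap, and the first 2 had none within 41258 bp. In replicate 2 they were an AluSx near HEXA (9 tags, 91.6), an AluSx1 in an intron of ATXN10 (8 tags, 81.6), an AluJo on chromosome 12 (7 tags, 81.6), an AluSz near MPP7 (6 tags, 81.6) and an AluJr on chromosome 3 (6 tags, 81.6). The first 3 of these had a replicate 1 peak within 102, 63 and 98 bp.

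Genes with a SINE peak in a promoter, exon or intron numbered 349 in replicate 1 and 241 in replicate 2, and 117 were in both, that is 33.5% and 48.5%. The same share over all genes with a peak is not given here, so these shares cannot be called high or low. CD4 had 4 SINE peaks in each list. IFNAR2, an interferon receptor gene, had 4 in replicate 1 within chr21:34624165-34624592, on AluSx1 and MIRc elements, 3 of them found in replicate 2 and the nearest tandem repeat peak 71290 bp away. Of 40 genes of JAK-STAT and ERK signalling, Y-box proteins and blood transcription factors, 3 were named for a SINE peak in replicate 1 and 2 in replicate 2, and 16 and 13 were named for some peak. Counted per gene, SINE peaks were 3 of their 76 peaks (3.95%) in replicate 1 and 2 of 79 (2.53%) in replicate 2, near the shares of 4.19% and 3.56% over all autosomal peaks. The only one with SINE peaks in both was ZFPM1, the GATA1 cofactor FOG1, with 1 of its 28 peaks in replicate 1 and 1 of its 34 in replicate 2. These were at different places. The region chr16:88584219-88584437 in an intron had an AluY label with 21 tags and a fold of 67.4 in replicate 1. In replicate 2 it had a TGGA label with 6 tags and 68. The SINE peak of replicate 2 was an intronic MIR3 outside that region, with 5 tags and a fold of 54.4. The share of a chromosome's peaks on SINEs ran from 2.23% (chromosome 16) to 6.35% (chromosome 17) in replicate 1 and from 0.935% (chromosome 16) to 6.16% (chromosome 15) in replicate 2.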

How the data were processed

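YBX1 ChIP-seq of HEL cells was read from 2 filtered peak lists, 1 per replicate. Tools in the submitters' processing notes are Bowtie2, Trimmomatic 0.36, bcl2fastq 02.14.01.07 and MACS 1.4, with reads placed on hg19. Each replicate's peaks come from MACS 1.4.2 against the shared input, per the file headers, with a p-value cutoff of 1e-05, d of 20 bp and 1 tag kept per position. How the authors filtered the lists is not stated in any source used here. Per the file headers, each peak carries a count of tags, a fold enrichment (ratio) over background, and a false discovery rate in percent, which is 0 for all peaks. The deposited score is the p-value as MACS writes it, on a negative log10 scale times 10. Position, genes and repeat labels are the authors'. Coordinates are hg19 and count from 1.

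From these, overlaps, gaps, shares with 95% Wilson intervals (counting error only), Fisher's exact tests and Mantel-Haenszel tests over tag counts of 5, 6, 7, 8 to 10, 11 to 20 and over 20 were computed with scipy 1.17.1, statsmodels 0.14.6 and pandas 2.3.3, and tested on simulated data. Regions were named by rule: the 20 with the highest lower fold, the 5 highest of each family, those at promoters or exons in both lists, those named for a signalling and blood gene list, and the 5 strongest peaks of each list that the other lacks. Members, lists and rules were chosen with earlier results of these data known. Some regions that the rule names are counted but not reported here by name.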

Additional observations from a re-analysis of the deposited data

How the results depend on the processing

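With peaks at p of at most 1e-10, the SINE share was 2.33% in replicate 1 and 1.85% in replicate 2. With at least 10 tags it was 2.19% and 1.63%. Without peaks beside a tandem repeat peak of the same list it was 2.11% (343 of 16239 peaks) and 2.05% (269 of 13144). The tandem repeat peaks themselves stayed in these totals, so this is not the SINE share of peaks away from tandem repeats. The Alu share of SINE peaks was 72.0% in replicate 1 at p of at most 1e-10, and 77.1% and 84.6% with at least 10 tags. The share found was 59.9% in replicate 2 at p of at most 1e-10, 38.3% and 66.7% with at least 10 tags, 40.9% in replicate 2 without peaks beside a tandem repeat peak, 27.5% and 31.5% without those beside one of either list (chosen after seeing the data), 25.8% and 41.9% with overlap of at least 0.5 of the shorter peak, and 23.9% and 37.3% with the same element. For AluY it was 45.5% in replicate 1 with at least 10 tags and 17.6% in replicate 2 without peaks beside a tandem repeat peak. The ratio of median fold, Alu over MIR, was 1.23 and 1.25 with at least 10 tags, 0.929 in replicate 1 without peaks beside a tandem repeat peak, 1 in replicate 1 on the genome-wide background alone, and 1.16 in replicate 2 at p of at most 1e-10. The odds ratio of being found, Alu over MIR, was 1.88 in replicate 1 at p of at most 1e-10 (not past the threshold). In replicate 2 it was 1.33 with at least 10 tags and 1.23 with the same element, both reversed and neither past the threshold. Within tag strata it was 0.545 there, now past the threshold. SINE over the other transposons in replicate 1 lost the call at 0.776 (p of at most 1e-10), 0.819 (at least 10 tags), 0.886 and 0.844 (without peaks beside a tandem repeat peak of the same or of either list). For introns the calls over the other transposons pooled were lost in both lists. The replicate 1 odds ratios were 1.20, 1.07 and 1.18 (p of at most 1e-10, at least 10 tags, no tandem neighbour). In replicate 2 they were 1.37, 1.13 and 1.20. Intron odds ratios reversed in replicate 1 over L2 (1.08 at p of at most 1e-10 and 1.11 with at least 10 tags), L1 (0.896 and 0.771) and DNA elements (0.960, 0.809 and, without tandem neighbours, 0.972), and in replicate 2 over L1 (0.902 with at least 10 tags and 0.996 without tandem neighbours). Regions in both lists numbered 127, 109 and 131 under these 3 settings. The cause of these changes was not tested.

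Taking each replicate alone, the SINE share ran from 3.56% to 4.19%, the Alu share from 68.2% to 76.3%, the share found from 31.2% to 49.9%, the ratio of median fold from 1.01 to 1.07, and the odds ratio of being found from 0.691 to 1.79 for Alu over MIR and from 0.689 to 1.25 for SINE over L2, both reversed. No paired analysis was possible because the lists hold 1 condition, with 1 input shared by both replicates. SINE peaks hold a median of 6 tags, and the lists start at 5, which limits how firmly a missing partner can be read. Of SINE peaks with at least 20 tags, 44 of 53 in replicate 1 and 23 of 28 in replicate 2 had a partner. The same share over all peaks with that many tags is not given here. Why the other SINE peaks lacked a partner was not tested.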
